A study of Mus musculus with 6 samples.

Results

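The immunity-related GTPases examined here are the products of 7 mouse genes, Irgm1, Irgm2, Igtp, Iigp1, Tgtp1, Tgtp2 and Ifi47. They were picked by name, and each of the 7 was found through its Ensembl identifier among the 35275 gene rows of every count table. RNA came from the whole lungs of Balb/c mice, 7 days after 250000 cells of 4T1, a mammary carcinoma line that seeds the lung, had been given into the tail vein. Lungs of mice that received 4T1.PD-L1 KO cells (3 libraries, called KO lungs) were set against lungs of mice that received 4T1.WT cells (3 libraries, called WT lungs). All lungs are labelled as tumour-bearing, all mice were of the same strain, and all lungs were flushed with 20 mL of PBS. KO describes the injected cells, and no host gene is labelled as edited. The labels state neither age nor sex, nor whether the KO line was 1 clone or a pool. The series title ties tumour PD-L1 to type I interferon, so the comparison asks how far a set of interferon-induced genes differed when the tumour cells lacked PD-L1.

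Immunity-related GTPases are made by cells that have received interferon, above all interferon gamma, and help cells to attack microbes that live inside membrane-bound vacuoles. They fall into 2 classes named after the first nucleotide-binding motif of the protein. The effectors carry a lysine in that motif (the GKS class) and load onto the vacuole of a parasite such as Toxoplasma gondii, while the regulators carry a methionine there (the GMS class), sit on the cell's own membranes and keep the effectors from acting on them. Interferon gamma acts on genes at gamma-activated sites (GAS), and type I interferon at interferon-stimulated response elements (ISRE), which IRF9 binds for that pathway and which IRF1 also binds.

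The class of each gene was read from its annotated coding sequence, because it orders the results. The 90 bases printed here lie around the motif in 3 regulators and 3 effectors on chromosome 11 of GRCm38, each within a single exon, and the 24 bases that encode the motif are in capitals. The regulator Irgm1 (chr11:48866728-48866817, minus strand), the regulator Irgm2 (chr11:58219662-58219751, plus strand) and the regulator Igtp (chr11:58206242-58206331, plus strand) have the methionine codon ATG as the seventh codon of the motif. The effectors Tgtp1 (chr11:48987634-48987723, minus strand), Tgtp2 (chr11:49059501-49059590, minus strand) and Ifi47 (chr11:49095615-49095704, plus strand) have the lysine codon AAG there, as has Iigp1. The motif was spelled identically in the 3 regulators, and Tgtp1 and Tgtp2 were identical over all 90 bases.
Irgm1: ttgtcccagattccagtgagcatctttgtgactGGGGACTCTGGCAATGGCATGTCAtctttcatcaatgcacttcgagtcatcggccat
Irgm2: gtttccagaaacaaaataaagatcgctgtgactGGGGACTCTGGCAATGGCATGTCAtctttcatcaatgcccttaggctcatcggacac
Igtp: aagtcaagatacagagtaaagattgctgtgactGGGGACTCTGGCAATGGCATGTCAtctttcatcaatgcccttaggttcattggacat
Tgtp1: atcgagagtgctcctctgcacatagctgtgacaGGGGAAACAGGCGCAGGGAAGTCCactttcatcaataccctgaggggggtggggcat
Tgtp2: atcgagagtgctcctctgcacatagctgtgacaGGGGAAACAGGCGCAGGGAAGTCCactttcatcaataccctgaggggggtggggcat
Ifi47: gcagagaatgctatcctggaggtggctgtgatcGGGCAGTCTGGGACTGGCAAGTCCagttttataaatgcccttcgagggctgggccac

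The promoters are shown because 4 of the 6 found carry the binding patterns of both interferon pathways. The RefSeq promoter table (GRCm38.p6, 250 bases before to 50 after the annotated start) held 6 of the 7 genes, all but Iigp1. The ISRE core was searched as GAAANNGAAA on both strands and the GAS as TTCNNNGAA, which reads the same on both strands. An ISRE core was found in 5 of the 6 promoters, against 3.44% of all 32851 promoters in the table, and a GAS in 4 of the 6, against 8.30%. In Igtp, Irgm2, Tgtp1 and Tgtp2 the GAS stood 2 bases before the ISRE core. A GAS 2 bases before an ISRE core, read in the direction of transcription, occurred in 5 of the 32851 promoters (0.0152%), those of these 4 genes and of Gm12185, a neighbour in the same family. The family arose by duplication, so these promoters are not independent of each other. Irgm1 held 2 ISRE cores that overlap by part of their length and no GAS. The window of Ifi47 held neither set of letters, which says nothing of the factors that bind there. The 80 bases around the matches, with the matches in capitals, were those of Irgm1 (chr11:48871401-48871480, minus strand), Irgm2 (chr11:58214887-58214966, plus strand), Igtp (chr11:58199496-58199575, plus strand), Tgtp1 (chr11:48992270-48992349, minus strand) and Tgtp2 (chr11:49064229-49064308, minus strand).
Irgm1: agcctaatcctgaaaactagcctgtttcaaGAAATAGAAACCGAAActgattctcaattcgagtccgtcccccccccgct
Irgm2: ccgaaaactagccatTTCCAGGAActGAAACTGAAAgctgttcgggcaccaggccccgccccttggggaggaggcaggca
Igtp: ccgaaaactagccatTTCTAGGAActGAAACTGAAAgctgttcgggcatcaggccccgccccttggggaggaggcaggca
Tgtp1: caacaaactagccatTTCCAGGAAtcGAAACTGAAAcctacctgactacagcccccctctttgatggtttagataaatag
Tgtp2: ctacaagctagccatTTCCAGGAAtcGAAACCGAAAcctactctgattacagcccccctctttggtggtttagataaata

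**Figure D1:**
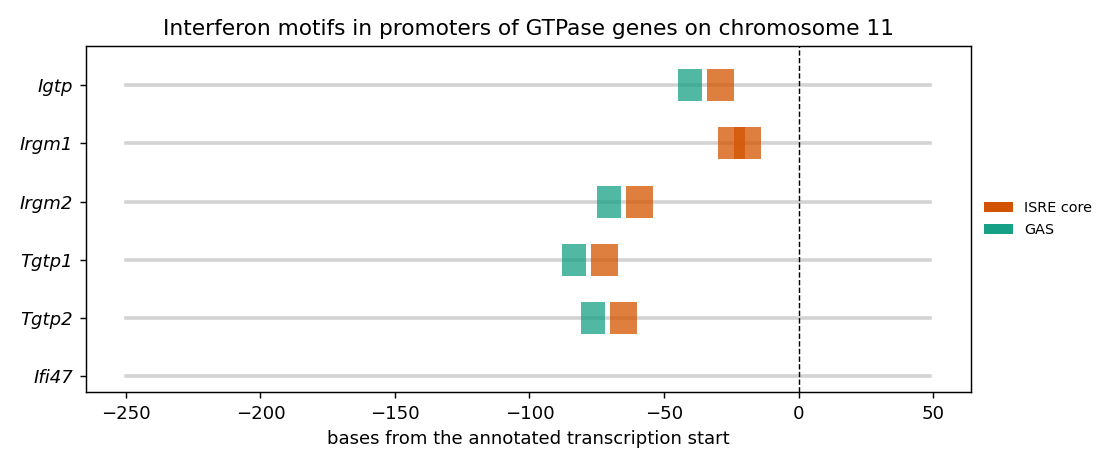
Positions of ISRE cores (orange) and GAS matches (green) in the promoters of the 6 genes found in the RefSeq table, in bases from the annotated transcription start (dashed line). In Igtp, Irgm2, Tgtp1 and Tgtp2 the GAS lies 2 bases before the ISRE core, Irgm1 has 2 overlapping ISRE cores, and Ifi47 has no match in the window.

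Libraries held 14711459 to 16932114 counts each and 17520 to 19156 genes with a count. Levels are given as CPM, counts per 1000000 counts of the library after TMM scaling. A count of 0 allows up to 0.176 to 0.206 CPM, at 3 counts, and this limit covers counting error only. As a check of the tissue, the 6 markers of alveolar type 2 cells summed to 11598 to 14392 CPM in KO lungs and 12005 to 13588 CPM in WT lungs. Whether each library came from its own animal is not labelled, and p-values then reflect only how far these samples spread.

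Of the 7 immunity-related GTPase genes, Tgtp1, Irgm1 and Irgm2 rose in KO lungs, 4 did not pass the test, and none fell (edgeR quasi-likelihood test, adjusted p under 0.05 over 15191 genes). The number that fell was also 0 at an unadjusted p under 0.05, by DESeq2 and by limma-voom. Of all genes tested, 1.12% were called higher. All 7 had log2 fold changes of more than 1, from 1.22 for Irgm2 to 2.41 for Tgtp1, with a median of 1.65, while the median over all genes tested was 0.01 and 3.33% of them had a log2 fold change of 1 or more. In all 7 every KO library lay above every WT library, as did 10.3% of all genes tested. The 7 genes together held 11625, 19736 and 31393 counts in KO replicates 1 to 3, which is 0.0754%, 0.130% and 0.191% of the counts, against 6289, 5765 and 7654 counts or 0.0427%, 0.0340% and 0.0498% in WT replicates 1 to 3. In whole-lung RNA, more cells that express these genes and more of their RNA per cell cannot be told apart, and neither can host cells and tumour cells.

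**Figure D2:**
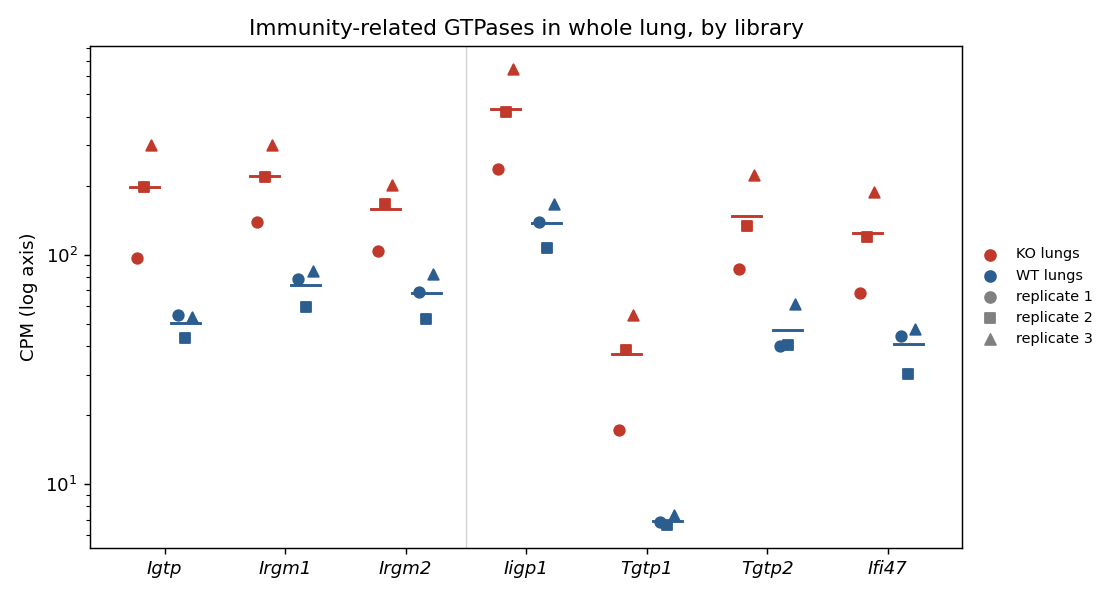
CPM (log axis) of each gene in each library, KO lungs in red and WT lungs in blue, with replicates by symbol and a bar at the group mean. Regulators of the GMS class stand left of the grey line and effectors of the GKS class right of it, and in every gene the lowest KO library lies above the highest WT library.

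Among the regulators, Irgm1 encodes a protein of the Golgi and lysosomes whose loss leaves mice open to intracellular bacteria. Irgm1 (ENSMUSG00000046879, chromosome 11, 48861968 to 48871683) had 139, 219 and 301 CPM in KO replicates 1 to 3, against 78.0, 59.4 and 84.9 CPM in WT replicates 1 to 3. The lowest KO library was 1.63 times the highest WT library. The group means were 219 ± 81.0 CPM in KO lungs and 74.1 ± 13.2 CPM in WT lungs (SD, n = 3 each), which is a log2 fold change of 1.57 ± 0.27 (SE; adjusted p by edgeR = 0.0420).

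Irgm2 (ENSMUSG00000069874, chromosome 11, 58199618 to 58222782), a second regulator, also found at the Golgi, had the smallest log2 fold change of the 7. It had 104, 167 and 202 CPM in KO replicates 1 to 3, against 68.8, 52.3 and 82.4 CPM in WT replicates 1 to 3. KO replicate 1 stood 1.26 times above WT replicate 3, the narrowest gap among the 7 genes. The log2 fold change was 1.22 ± 0.24 (edgeR adjusted p = 0.0459), with means of 158 ± 49.7 CPM in KO lungs and 67.8 ± 15.1 CPM in WT lungs (SD, n = 3 each).

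Igtp (ENSMUSG00000078853, chromosome 11, 58199556 to 58207591) encodes the regulator of the endoplasmic reticulum and lipid droplets, also called Irgm3. It had 96.6, 198 and 300.1 CPM in KO replicates 1 to 3, against 54.8, 43.3 and 53.4 CPM in WT replicates 1 to 3. The 3 KO libraries spanned 3.11-fold and the 3 WT libraries 1.27-fold. Igtp did not pass (edgeR adjusted p = 0.111), although its log2 difference of 1.97 ± 0.42 was larger than those of Irgm1 and Irgm2, which passed. The annotated spans of Igtp and Irgm2 overlap on the same strand. These genes share 162 bases of annotated exon, 8.01% of the exonic bases of Igtp and 4.39% of those of Irgm2.

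Among the effectors, Tgtp1 and Tgtp2 are near-identical copies that encode the protein Irgb6, which binds early to the vacuole of Toxoplasma. Their coding sequences differ at 4 bases and are 99.7% identical, while every other pair among the 7 genes is at most 65.6% identical. Of the windows of 100 bases in the longest coding transcript, 83.3% in Tgtp1 and 80.4% in Tgtp2 occur unchanged in a transcript of another gene, each other or Gm12185, against at most 5.67% in the other 5 genes. No source used here says how the authors' counting treated reads that map to both copies, so the split between the copies is uncertain.

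Tgtp1 (ENSMUSG00000078922, chromosome 11, 48985327 to 48994172) had 17.1, 38.5 and 54.8 CPM in KO replicates 1 to 3, against 6.81, 6.64 and 7.35 CPM in WT replicates 1 to 3. The WT libraries were nearly level, and the lowest KO library was 2.33 times the highest WT library, the widest gap among the 7 genes. Tgtp1 rose, with a log2 fold change of 2.41 ± 0.35 that ranked 27 among all genes tested (adjusted p by edgeR = 0.0118). Tgtp2 (ENSMUSG00000078921, chromosome 11, 49057194 to 49064206) had 86.9, 133 and 222 CPM in KO replicates 1 to 3, against 40.1, 40.3 and 60.8 CPM in WT replicates 1 to 3. Its groups did not overlap either, but at a log2 difference of 1.65 ± 0.37 it failed the threshold (edgeR adjusted p = 0.114). With the counts of both copies summed, the log2 difference was 1.77 and did not pass either (edgeR adjusted p = 0.101); most counts of the sum were those of Tgtp2.

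Ifi47 (ENSMUSG00000078920, chromosome 11, 49076587 to 49096974) encodes the effector Irgd. It had 67.8, 119 and 187 CPM in KO replicates 1 to 3, against 44.3, 30.2 and 47.3 CPM in WT replicates 1 to 3, and the groups did not overlap. Ifi47 did not pass, at a log2 difference of 1.62 ± 0.39 (edgeR adjusted p = 0.129). Ifi47 shares 111 exonic bases with Olfr56, an olfactory receptor gene on the same strand, and 106 with the pseudogene Gm12188 on the opposite strand. Olfr56 had 1.29, 3.41 and 4.63 CPM in KO replicates 1 to 3 and 1.86, 1.35 and 1.64 CPM in WT replicates 1 to 3, a small part of the level of Ifi47.

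Iigp1 (ENSMUSG00000054072) encodes Irga6, the best-studied effector, whose crystal structure showed how these GTPases pair. It lies on chromosome 18, apart from the other 6, and no other annotated gene shares its exons. It had the most counts of the 7 genes in every library. Its level was 237, 417 and 647 CPM in KO replicates 1 to 3, against 139, 106 and 166 CPM in WT replicates 1 to 3. Iigp1 did not pass, at a log2 difference of 1.66 ± 0.39 (edgeR adjusted p = 0.14), although the lowest KO library was 1.42 times the highest WT library.

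The KO libraries differed from each other more than the WT libraries did. In all 7 genes KO replicate 3 was the highest and KO replicate 1 the lowest of the KO libraries, a pattern seen in 19% of all genes tested and in 125 of the 170 genes called higher (73.5%). Set against the mean of the WT libraries, the genes stood 1.54-fold (Irgm2) to 2.47-fold (Tgtp1) higher in KO replicate 1, 2.47-fold (Irgm2) to 5.55-fold (Tgtp1) higher in KO replicate 2, and 2.98-fold (Irgm2) to 7.90-fold (Tgtp1) higher in KO replicate 3. The highest KO library was 1.94 to 3.20 times the lowest one, against 1.11 to 1.57 times in the WT libraries.

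Without KO replicate 1 all 7 genes rose. Without KO replicate 2, WT replicate 1 or WT replicate 2 none of the 7 passed, without WT replicate 3 only Irgm2 did, and without KO replicate 3 Irgm1 and Tgtp1 did. The share of all genes called higher moved as well, from 0.141% without WT replicate 2 to 2.58% without KO replicate 1, and the log2 fold changes of the 7 genes stayed between 0.997 and 2.75 in these fits. DESeq2, limma-voom and edgeR without robust estimation each called all 7 genes higher. In total, DESeq2 called 353 genes higher, limma-voom 154 of 15191, and edgeR without robust estimation 180 of 15191. DESeq2 was given 21769 genes with a count in any library, before its own filter on low counts.

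**Figure D3:**
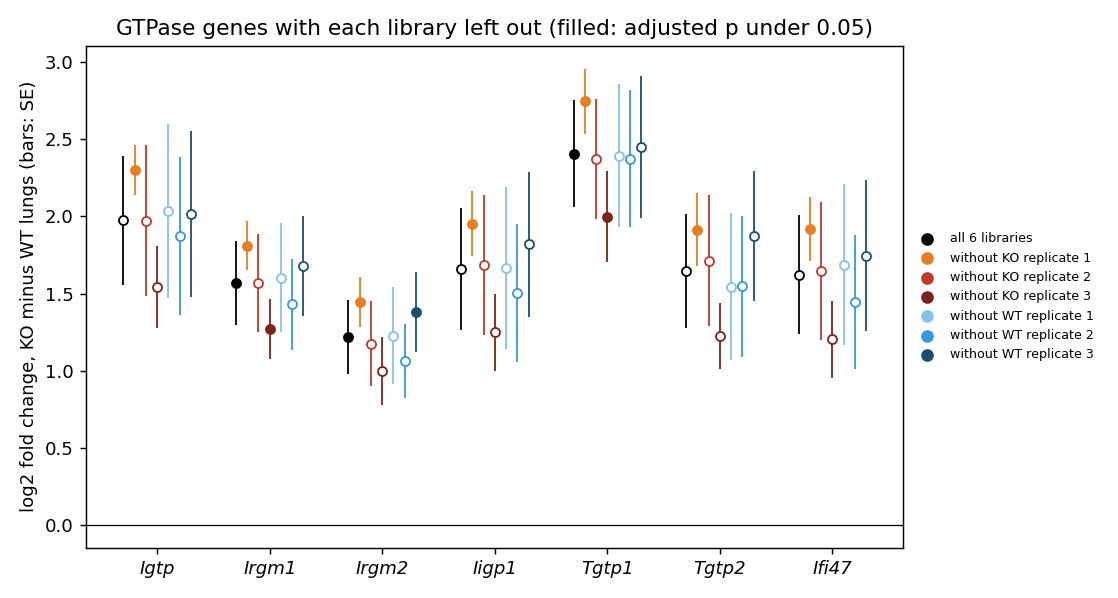
Log2 fold change of each gene, KO minus WT lungs, with its SE, over all 6 libraries (black) and with each library left out, where filled points have an adjusted p under 0.05. Every point lies above 0; all 7 genes are filled without KO replicate 1, and none without KO replicate 2, WT replicate 1 or WT replicate 2.

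Levels were compared between the genes as CPM per kilobase of exon. In KO lungs the order was Igtp with 98.1 ± 50.3, Iigp1 with 74.5 ± 35.3, Ifi47 with 50.4 ± 24.2, Tgtp2 with 50.2 ± 23.4, Irgm2 with 42.8 ± 13.5, Irgm1 with 37.8 ± 13.9 and Tgtp1 with 11.5 ± 5.89 CPM per kilobase (SD, n = 3). In WT lungs it was Igtp with 25 ± 3.11, Iigp1 with 23.6 ± 5.15, Irgm2 with 18.4 ± 4.08, Ifi47 with 16.4 ± 3.69, Tgtp2 with 16 ± 4.05, Irgm1 with 12.8 ± 2.27 and Tgtp1 with 2.16 ± 0.117 CPM per kilobase (SD, n = 3). In both groups the range of each gene over the libraries overlapped that of its neighbour in the order, except that all libraries of Tgtp1 lay below all those of Irgm1. Compared within each library, neighbours kept this order in every library of the group, with 2 exceptions. Ifi47 and Tgtp2 changed places in both groups, and Igtp and Iigp1 did so in WT lungs. Exonic length was taken over all annotated transcripts, which lowers the level of genes with long rare transcripts. Irgm1 and Iigp1 had 5810 and 5823 exonic bases, against 2259 and 3121 bases in their longest coding transcript. Igtp had 2022 bases in both, so the order of the genes depends on the length used. The places of Tgtp1 and Tgtp2 also depend on how reads shared with another gene were counted, which is not known. Of their windows of 100 bases, 83.3% and 80.4% occur in another gene, so their levels are not comparable with those of the other 5.

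Proportions within the 7 genes varied less than their summed level. That sum was 748, 1293 and 1914 CPM in KO replicates 1 to 3, against 432, 339 and 502 CPM in WT replicates 1 to 3. The sum of the GMS regulators divided by that of the GKS effectors was 0.830, 0.825 and 0.723 in KO replicates 1 to 3, against 0.874, 0.844 and 0.783 in WT replicates 1 to 3, so the groups overlapped. Within the regulators, the ratio of Igtp to Irgm1 was 0.697, 0.905 and 0.998 in KO replicates 1 to 3, against 0.702, 0.729 and 0.630 in WT replicates 1 to 3, with overlap through KO replicate 1. The ratio of Igtp to Irgm2 was 0.928, 1.19 and 1.48 in KO replicates 1 to 3, against 0.796, 0.827 and 0.649 in WT replicates 1 to 3, with no overlap. The ratio of Tgtp2 to Tgtp1 was 5.08, 3.47 and 4.05 in KO replicates 1 to 3, against 5.89, 6.07 and 8.27 in WT replicates 1 to 3, also with no overlap. The ratios are given as a description and were not tested.

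**Figure D4:**
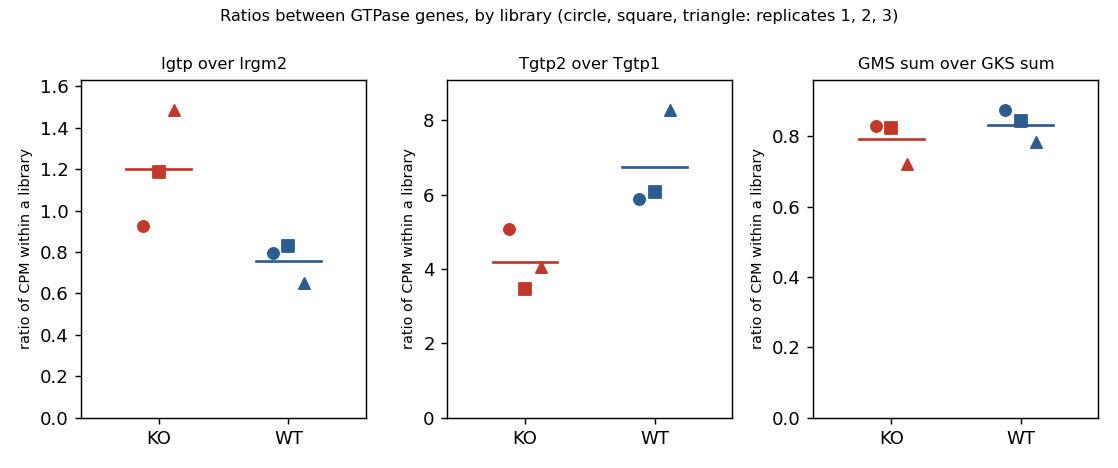
Ratio of CPM between genes within each library for Igtp over Irgm2, Tgtp2 over Tgtp1, and the sum of the 3 GMS regulators over the sum of the 4 GKS effectors, with KO lungs left of WT lungs and bars at group means. The groups do not overlap for Igtp over Irgm2 (0.928 to 1.48 in KO, 0.649 to 0.827 in WT) or for Tgtp2 over Tgtp1 (3.47 to 5.08 in KO, 5.89 to 8.27 in WT), and overlap for the regulators over the effectors.

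Of 10 other genes of the family, 9 had enough counts to be tested, 1 rose and 8 did not pass. The one that rose was Gm4951, with 22.2 ± 10.9 CPM in KO lungs and 6.66 ± 1.07 CPM in WT lungs (SD, n = 3 each), or 1.74 ± 0.33 as log2 fold change (adjusted p by edgeR = 0.0212). Gm12250, which encodes the effector Irgb10, had 30.6, 78.2 and 104 CPM in KO replicates 1 to 3, against 18.1, 15.7 and 25.5 CPM in WT replicates 1 to 3 (edgeR adjusted p = 0.142). Gm12185, which shares 223 exonic bases with Tgtp1, had a log2 difference of 1.34 ± 0.33 (edgeR adjusted p = 0.0695). Gm4841 had the largest log2 difference of the 9, 2.29 ± 0.64, and did not pass (edgeR adjusted p = 0.0994). Irgq, a distant relative, had 35.1 ± 8.45 CPM in KO lungs and 38.4 ± 2.16 CPM in WT lungs (SD, n = 3 each), a log2 difference of −0.13 ± 0.17. The testis gene Irgc1 had no count in any library. The median log2 fold change of the 9 tested genes was 1.07. The count that rose was 5 without KO replicate 1 and 0 without any 1 of the other 5 libraries.

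Guanylate-binding proteins are larger interferon-induced GTPases that act on the same vacuoles. Of 8 measured genes, Gbp7, Gbp8 and Gbp11 rose, 5 did not pass, and the median log2 fold change was 1.58, close to that of the 7 immunity-related GTPases. Gbp7 had 287 ± 98.7 CPM in KO lungs and 113 ± 22.2 CPM in WT lungs (SD, n = 3 each). Gbp2b had the largest log2 difference of the 8, 1.86 ± 0.43, and did not pass (edgeR adjusted p = 0.137). The count that rose was 8 without KO replicate 1, 2 without WT replicate 3, 1 without KO replicate 3, and 0 without KO replicate 2, WT replicate 1 or WT replicate 2. The difference between the families was not tested.

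Genes that bring the interferon signal to these promoters were taken as 2 lists. Of 8 genes of the interferon-gamma signal, Irf1, Irf8 and Socs1, which damps the signal, rose and 5 did not pass. Irf1 had 445, 551 and 527 CPM in KO replicates 1 to 3, against 280, 218 and 311 CPM in WT replicates 1 to 3, so the groups did not overlap and KO replicate 2 was the highest. Ifng, the interferon gamma gene, had 0.772, 1.25 and 3.29 CPM in KO replicates 1 to 3, against 0, 0.294 and 0.525 CPM in WT replicates 1 to 3 (log2 difference 2.65 ± 0.99, edgeR adjusted p = 0.22). Its receptor gene Ifngr1 had a log2 difference of 0.14 ± 0.12, and the kinase gene Jak1 one of −0.19 ± 0.10.

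Of 7 measured genes of the type I interferon signal, Irf7, Stat2, Irf9 and Usp18, a brake on the receptor, rose and 3 did not pass. Irf9, which encodes the DNA-binding part of the complex at ISREs, had 114 ± 15 CPM in KO lungs and 74.8 ± 10.5 CPM in WT lungs (SD, n = 3 each), and Irf7 had 141 ± 48.2 CPM in KO lungs and 52.6 ± 8.95 CPM in WT lungs. The list also held 3 interferon genes with too few counts to be tested: all 8 counts of Ifna5 came from KO replicate 3, while Ifnb1 and Ifna4 had no count in any library and were not detectable at this depth. The median log2 fold changes were 0.42 for the interferon-gamma signal and 0.61 for the type I signal. With 1 library left out, 0 to 3 of the interferon-gamma genes and 1 to 4 of the type I genes rose; the counts stayed at 3 and 4 only without KO replicate 1, and were 0 and 1 without KO replicate 2.

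Regulators and effectors are sorted onto membranes with the help of the proteins that attach ATG8 to lipid, known from autophagy. Of 12 genes of ATG8 conjugation, 0 passed by edgeR, DESeq2 or limma-voom, and 0 had an unadjusted p under 0.05 by edgeR, as 14.6% of all genes tested had. Their median log2 difference was 0.10, and Atg12, the ubiquitin-like partner of the conjugating enzyme, had 49.2 ± 3.51 CPM in KO lungs and 41.3 ± 2.73 CPM in WT lungs (SD, n = 3 each). Of 8 genes for ubiquitin and autophagy adaptors that gather at the vacuole, 1 rose, Rnf213, an interferon-induced ubiquitin ligase (log2 fold change 0.59 ± 0.14, edgeR adjusted p = 0.0485), and 2 rose without KO replicate 1 and none without any 1 of the other libraries.

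**Figure D5:**
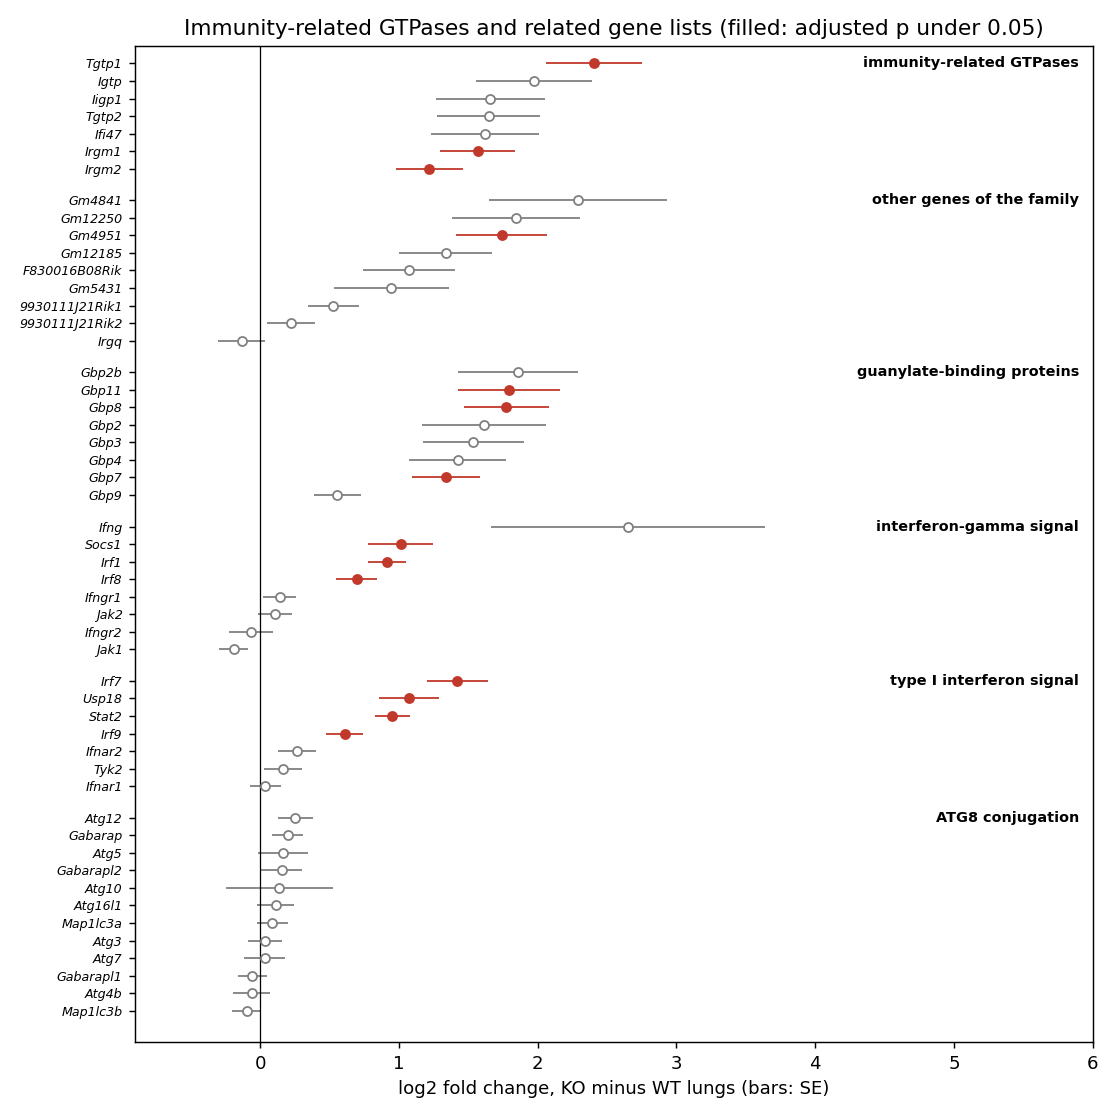
Log2 fold change with SE, KO minus WT lungs, of the 7 immunity-related GTPase genes and of the tested genes of 5 related lists, where filled red points have an adjusted p under 0.05. Medians are 1.65 for the 7 genes, 1.07 for other genes of the family, 1.58 for guanylate-binding proteins, 0.42 and 0.61 for the interferon-gamma and type I signals, and 0.10 for ATG8 conjugation.

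The genes most like the 7 across the 6 libraries were ranked by their mean Pearson r of log2 CPM with the 7, among 12673 named genes. The 10 highest were H2-Aa, Bak1, Il18bp, H2-Ab1, Herc6, Cxcl10, Gbp4, Cd274, Gbp7 and Cd74, with a mean r of 0.987 to 0.993. Between pairs of the 7 genes r was 0.969 to 0.998. The libraries fall into KO and WT lungs, so these values contain the difference between the groups and are a description over 6 libraries. H2-Aa, a chain of an MHC class II molecule, had 54.6, 77.9 and 100.4 CPM in KO replicates 1 to 3, against 36.4, 31.2 and 42.3 CPM in WT replicates 1 to 3. Cd274, which encodes PD-L1, had 97.4, 197 and 301 CPM in KO replicates 1 to 3, against 62.6, 53.6 and 74.3 CPM in WT replicates 1 to 3 (log2 difference 1.65 ± 0.42, edgeR adjusted p = 0.161). Host cells keep the Cd274 gene, so its level in whole lung is no full check of the KO label.

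Some genes of the leukocyte marker lists were also higher in KO lungs. Of 6 pan-leukocyte genes, Coro1a and Cd53 rose, and their summed level was 1746 to 2289 CPM in KO lungs and 1366 to 1763 CPM in WT lungs, with overlap. Divided by that sum, the level of the 7 genes was 0.429, 0.565 and 0.860 in KO replicates 1 to 3. In WT replicates 1 to 3 the ratio was 0.317, 0.198 and 0.285, without overlap. The sum covers 6 genes only and cannot show a change in the mix of leukocytes, and the part of leukocyte content was not tested. Of 9 monocyte genes, Ly6c2, Ccr2 and Fcgr1 rose. The summed level of the 9 was 1909 to 1971 CPM in KO lungs and 1579 to 1892 CPM in WT lungs. The largest part of that sum was Nr4a1, with 1117 to 1357 CPM in KO lungs and 1142 to 1316 CPM in WT lungs. Its log2 difference was −0.04 ± 0.11, so the sum says little of the genes that rose. Of 8 neutrophil genes, 7 were tested and S100a8 and S100a9 rose. The neutrophil sums were 332 to 504 CPM in KO lungs and 173 to 288 CPM in WT lungs. A large part of these sums was S100a9, with 147 to 249 CPM in KO lungs and 79.5 to 118 CPM in WT lungs. The other 5 tested genes did not pass and overlapped between the groups, with log2 differences down to −0.24, so the sums say little of them. T cells and NK cells are the main makers of interferon gamma. Of 8 T cell genes 0 passed by edgeR (2 at an unadjusted p under 0.05, against 14.6% of all genes tested, 2 by DESeq2, 0 by limma-voom), with sums of 138 to 196 CPM in KO lungs and 92.8 to 162 CPM in WT lungs. Of 6 NK cell genes 0 passed by edgeR, DESeq2 or limma-voom (1 at an unadjusted p under 0.05 by edgeR), with sums of 181 to 185 CPM in KO lungs and 107 to 224 CPM in WT lungs. Of 6 B cell genes 0 passed by edgeR (4 at an unadjusted p under 0.05, 1 by DESeq2, 0 by limma-voom), with sums of 169 to 234 CPM in KO lungs and 102 to 168 CPM in WT lungs. With KO replicate 2, WT replicate 1 or WT replicate 2 left out, no pan-leukocyte or neutrophil gene passed and 1 monocyte gene did, as was also so without KO replicate 3.

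Outside the leukocytes, 1 of 3 club cell genes rose by edgeR (Cyp2f2). At an unadjusted p under 0.05 by edgeR 3 were higher, against 14.6% of all genes tested in either direction, and 3 by DESeq2 and by limma-voom. The club cell sums were 1562 to 3488 CPM in KO lungs and 408 to 949.6 CPM in WT lungs. Of 5 platelet genes 1 fell by edgeR (Ppbp), 4 were lower at an unadjusted p under 0.05, 4 by DESeq2 and 1 by limma-voom. The platelet sums were 13.3 to 25.3 CPM in KO lungs and 46.7 to 71.5 CPM in WT lungs. Of 6 fibroblast genes 1 fell, Pdgfra, with 478 ± 22.4 CPM in KO lungs and 656 ± 57.5 CPM in WT lungs (SD, n = 3 each; log2 fold change −0.46 ± 0.11, adjusted p by edgeR = 0.0485). The fibroblast sums were 3670 to 4312 CPM in KO lungs and 4655 to 4988 CPM in WT lungs, without overlap. The 6 genes did not all move the same way, as 1 had a positive log2 difference, 0.47. Only 2 of the 6 had every KO library below every WT library. Without KO replicate 1, 2 genes of the list fell, and 0 without any 1 of the other libraries. Of 6 endothelial genes 0 passed by edgeR, DESeq2 or limma-voom (1 at an unadjusted p under 0.05 by edgeR, against 14.6% of all genes tested). The endothelial sums were 4512 to 5693 CPM in KO lungs and 4796 to 6093 CPM in WT lungs. The number of club cell genes that rose was 3 without WT replicate 3, 2 without KO replicate 1 and 0 without any 1 of the other 4 libraries. The number of platelet genes that fell was 2 without KO replicate 1 and 1 without any 1 of the others. No marker of these lists was at 0 in all libraries. The part of these cell types in the levels of the 7 genes was not tested.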

How the data were processed

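The authors deposited raw counts, as whole numbers for each Ensembl gene. Per the series' design text, STAR 2.5 had aligned the paired-end reads to mm10, and per the submitters' processing notes HTSeq 0.6.1 had counted them. No source used here gives the annotation release, strand setting or counting mode. Genes with shared exons or near-identical copies can therefore lose or exchange reads, and without a stated strand setting antisense reads cannot be told apart.

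Symbols, coordinates and exon lengths came from GENCODE M21 (GRCm38) by exact identifier. Symbols were found for 34490 of 35275 rows, and coding sequences were cut from its transcripts. Library pairs differed by 14.7 to 51.8 times the sampling variance (chi-square per degree of freedom), and none were identical. KO was compared with WT by the quasi-likelihood F-test of edgeR 4.0.16 in R 4.3.3 (TMM, filterByExpr with a minimum count of 10, robust estimation, group as the only term), with Benjamini-Hochberg adjustment over 15191 genes, a threshold of 0.05 and two-sided p-values. The SE is the absolute log2 fold change over the root of F. CPM are counts per 1000000 of the TMM-scaled library. Alternatives were other scalings and filters, DESeq2 1.42.0, limma-voom (limma 3.58.1), no robust estimation, each library left out, the replicate number as a block, and Tgtp1 and Tgtp2 summed. The procedure was also run on simulated counts with the same spread per gene in both groups. The KO libraries of the 7 genes spread more than the WT libraries, which that run does not cover. The 7 genes, the lists and the rule for named genes were chosen with earlier results of these data known. The rule allowed the 7, list genes that passed, and up to 3 others per list with the smallest p. It also allowed overlapping genes and the 10 most alike. Gm12250, Irgq, Irgc1, Ifnb1, Ifna4, Ifna5 and Nr4a1 fall outside that rule and were picked after their values were seen. So were the lists' counts by tool and without each library. A further gene is not reported here and was left out of the lists and the ranking by likeness, but not out of the fit.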

Additional observations from a re-analysis of the deposited data

How the results depend on the processing

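The log2 fold changes stayed positive under every alternative run for each gene, 15 for Tgtp1 and Tgtp2 and 16 for the other 5 genes, from 0.997 (Irgm2) to 2.75 (Tgtp1). The count of the 7 genes called higher was 3 over all libraries. With 1 library left out it ranged from 0 to 7, the count of all genes called higher from 22 to 404, and that of genes called lower from 2 to 174. DESeq2 called all 7, with 353 genes higher and 232 lower in total. Without a filter on low counts all 7 were called, with 578 genes higher and 225 lower. In that fit the SEs of the 7 genes were 0.12 to 0.21, against 0.24 to 0.42 in the main fit. The KO libraries of these genes spanned 1.94-fold to 3.20-fold, so these calls carry little weight. The cause of the small SEs was not tested. Limma-voom called 7, with 154 genes higher and 54 lower, and so did edgeR without robust estimation, with 180 higher and 49 lower. Robust estimation gave these genes 1.69 to 7.29 prior degrees of freedom, against a median of 10 over all genes tested, so their own spread weighed more. Upper-quartile scaling left Irgm2 just short of passing (adjusted p = 0.0521).

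With the replicate number as a block, 5 of the 7 genes were called, with 309 genes higher and 96 lower. Equal numbers did not deviate together between KO and WT (r of −0.02 to 0.03), so they were not treated as pairs.

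The lowest count of the 7 genes in any library was 99, for Tgtp1.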

Other observations

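Among guanylate-binding protein genes, 5 had a promoter in the RefSeq table, of which 5 held an ISRE core and 2 a GAS. Among ATG8 conjugation genes, 9 had one, of which 0 held an ISRE core and 2 a GAS. These counts were not tested.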
